A study of Mus musculus with 12 samples.

Results

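Replication-dependent histone genes supply the histones that package newly made DNA. The members described here are every gene symbol in the deposited count files that starts with Hist1h, Hist2h, Hist3h or Hist4h: 68 of 23420 symbols, of which 6 belong to H1, 18 to H2A, 19 to H2B, 12 to H3 and 13 to H4. RefSeq places 54 of them on chromosome 13, 10 on chromosome 3, 3 on chromosome 11 and 1 on chromosome 6. Hist3h2bb-ps is named as a pseudogene, and the other 67 have a coding transcript in GENCODE M21.

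Paired copies of H2A, H2B, H3 and H4 form the core of a nucleosome, and H1 binds the DNA between cores. The genes of this family are switched on together in S phase through NPAT, a coactivator of histone gene clusters, and their mRNAs end in a conserved stem-loop in place of a poly(A) tail. The stem-loop binding protein SLBP holds that structure, helps to form the 3′ end, and is removed as S phase closes, when the mRNAs are degraded. In the colonic crypt, cells divide in the lower part and stop dividing on their way to the surface.

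The study set crypts of wild-type mouse colon (3 libraries) against confluent monolayers grown from such cells and sampled at day 3, day 4 or day 5 (3 libraries per day, 12 in all). Per the labels, crypts came from a mouse aged 6 to 10 weeks, cells were first grown on collagen and then replated on scaffolds with a gradient of cross-linking, and no group received a drug or carried an engineered allele. The titles also give an electrical resistance of the cell sheet, 526 ± 56, 623 ± 15 and 407 ± 53 Ω cm2 for the 3 days in order, with the type of error unnamed. The sources used here do not give the strain, the number of mice or whether replicates are separate cultures. Each p-value therefore weighs a difference only against the spread between these libraries, which may be technical. Nor do they say whether poly(A) RNA was selected, and that choice bears on how much mRNA without a tail is counted.

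Depth was 4518314 to 14290393 gene counts per library, and 0.0942 to 0.270% of these fell on the members. A count of 3 corresponded to 0.215 to 0.605 counts per 1e+06 gene counts (CPM), and such floors cover counting error only. Levels below are CPM scaled between libraries by TMM, as mean ± SD over 3 libraries where no n is stated. Each change is a log2 fold change from edgeR's quasi-likelihood test. Its SE was derived as the absolute change divided by the square root of the F statistic of that test. A gene is said to have risen or fallen where its Benjamini-Hochberg adjusted p over 12863 genes was below 0.05. The 8 epithelial markers summed to 9949 to 11229 CPM in crypts and 11292 to 15165 CPM in monolayers, so the labelled epithelium was present in each library. Goblet cell markers and absorptive colonocyte markers were lower in monolayers for 8 of 8 genes each, where 32.8% of all genes were. The nuclear RNA Malat1 stood at 20098 ± 1233 CPM in crypts and at 59512 ± 1732, 79283 ± 5293 and 115895 ± 21190 CPM at day 3, day 4 and day 5, and its part in the results below was not tested.

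The stem-loops that define the family are shown for 9 members, chosen to carry the contrasts below between classes and between members that fell and members that did not. Capitals mark the 16 bases of the stem-loop, with 6 paired bases on each side of a 4-base loop, and the small letters are the 5 bases on either side, taken from GENCODE M21 transcripts of build GRCm38.
Hist1h1c: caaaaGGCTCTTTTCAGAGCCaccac
Hist1h1e: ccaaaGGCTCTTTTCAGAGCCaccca
Hist1h2ab: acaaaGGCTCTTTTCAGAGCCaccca
Hist2h2ac: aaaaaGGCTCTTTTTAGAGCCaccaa
Hist1h2bm: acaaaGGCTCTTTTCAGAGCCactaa
Hist1h3c: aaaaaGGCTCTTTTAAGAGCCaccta
Hist1h4d: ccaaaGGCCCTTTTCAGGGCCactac
Hist1h4h: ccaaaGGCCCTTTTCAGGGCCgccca
Hist1h4i: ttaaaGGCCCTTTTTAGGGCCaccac
Letters of this form, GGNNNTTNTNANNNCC with a paired stem, were found 21 to 58 bases after the stop codon in 46 of the 67 coding members: 4 of 6 H1, 11 of 18 H2A, 10 of 18 H2B, 9 of 12 H3 and 12 of 13 H4. In 15 of the other members the annotation ends at the stop codon or at most 2 bases past it, so the absence there describes the annotation. The form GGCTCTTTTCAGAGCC was found in 26 members and in no H4 gene. H4 genes carried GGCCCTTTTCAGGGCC in 7 members, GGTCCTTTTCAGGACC in 2 and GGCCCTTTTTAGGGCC in 2, so the stem letters separated H4 from the other classes.

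Histone mRNA was lower in monolayers than in crypts, and lowest at day 5. The summed level of all 68 members was 2236 ± 251 CPM in crypts. It came to 1517 ± 18.04 CPM at day 3, 1358 ± 125 CPM on the next day and 1099 ± 128 CPM at day 5. Of 55 members with enough counts to test, 51 fell between crypts and the mean of the 3 monolayer days and 0 rose, while 32.8% of all genes tested fell and 30.7% rose. The median change of the 55 was -1.78, against -0.03 over all genes. DESeq2 called 50 of the 55. Hist1h2ad, Hist1h2bp and Hist2h2be had enough counts through crypts alone, so their counting as tested already favours a fall, and 13 members had too few counts to be tested. These are bulk samples, so fewer cells in S phase and less histone mRNA per cell cannot be told apart. Scaling by library totals shifted the median of all genes by -0.18, and no called member changed sign under it.

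The number that fell grew with the day. At day 3, 32 of 55 members had fallen against crypts (background 27.9% of all genes), at day 4 38 had (28.4%), and at day 5 49 had (28.9%), with 0 higher on each day. In all 9 monolayer libraries 33 members lay below every crypt library, where 23.2% of all genes did so. A set of 29 members fell on each of the 3 days (21.2% of all genes did), 10 were called lower at day 5 and not at day 3 or day 4 (4.32%), and 4 (Hist1h1c, Hist1h4i, Hist1h4m and Hist1h4n) fell on none. The days share their crypt libraries, so these counts are not independent of one another, and the difference between days behind the 10 was not tested. Of the 10, Hist1h3e lost its day 5 call in 8 of the 12 fits that left out 1 library, Hist1h3a and Hist1h4j in 5 each, Hist1h2bp in 2, and Hist1h3d and Hist1h4d in 1 each. The median change against crypts was -1.14, -1.76 and -2.41 on the 3 days in order.

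**Figure D1:**
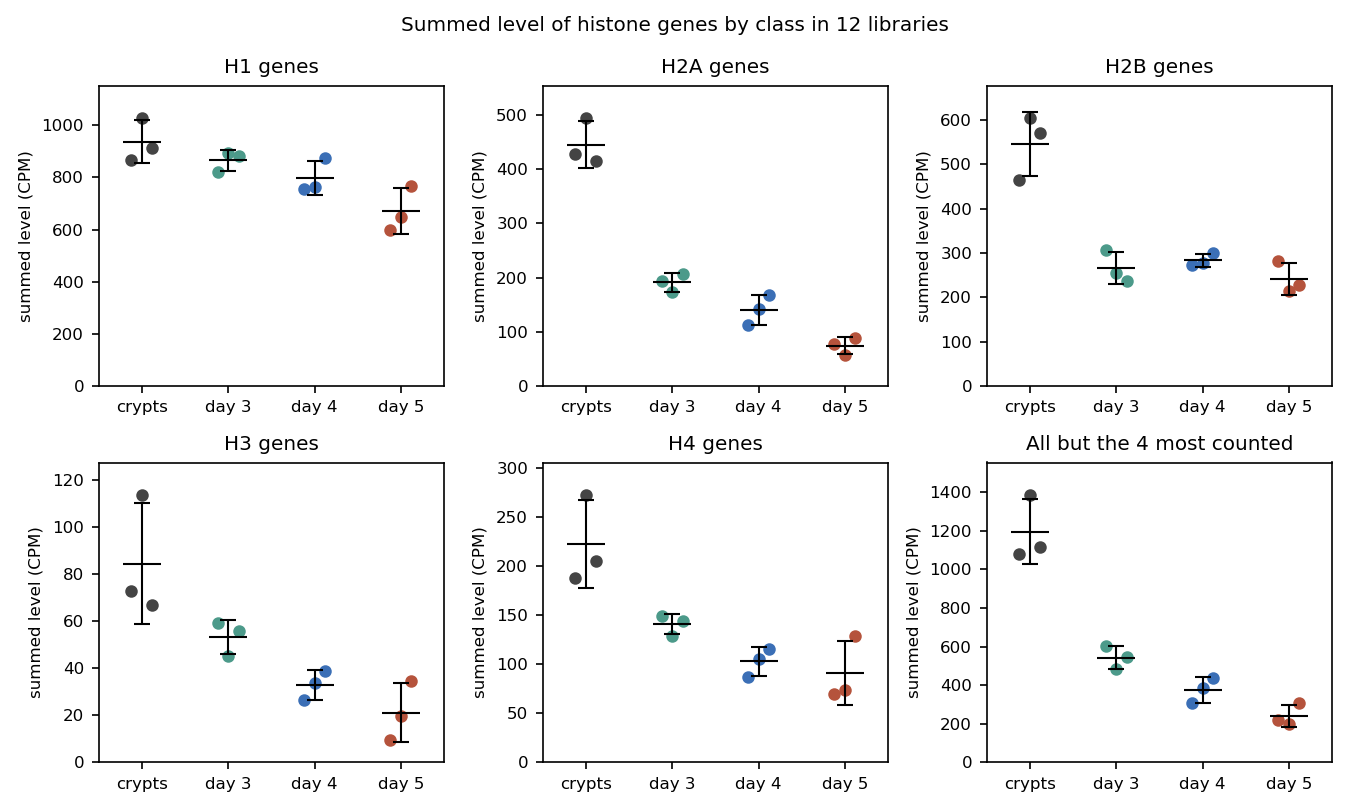
Summed level in CPM (y axis, from 0) of the genes of each histone class and of all members but the 4 most counted, in crypts and at days 3, 4 and 5 (x axis). Points are libraries and bars are the mean ± SD of 3; H2A falls from 445 to 74.6 CPM by day 5, while H1 goes from 936 to 671 CPM.

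The part of the crypt level that was left varied by class. H2A genes summed to 445 ± 42.8 CPM in crypts and to 191 ± 17.6, 141 ± 27.4 and 74.6 ± 16.2 CPM at day 3, day 4 and day 5. H3 genes went from 84.6 ± 25.6 to 53.5 ± 7.31, 33.1 ± 6.30 and 21.2 ± 12.6 CPM. For H4 the sums were 222 ± 44.7, 141 ± 10.4, 103 ± 14.5 and 90.6 ± 32.7 CPM. H2B genes had 547 ± 72.3 CPM in crypts and then 266 ± 36.8, 284 ± 15.1 and 242 ± 36.2 CPM. Most of what was left of H2B was Hist1h2bc, and the other 18 H2B genes, set apart after values had been seen, summed to 333 ± 44.3 CPM in crypts and 128 ± 28.5, 86.004 ± 15.5 and 48.98 ± 6.30 CPM on the 3 days. H1 genes kept the largest part, with 936 ± 82.3 CPM in crypts and 866 ± 39.0, 797 ± 65.6 and 671 ± 87.0 CPM on the 3 days. These sums are descriptions without a test, and the difference between classes was not tested.

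A few strongly counted genes set the total. The 4 members with the most counts, Hist1h1e, Hist1h1c, Hist1h2bc and Hist1h1d, made up 46.7% of the summed level in crypts and 64.3, 72.5 and 78.2% at day 3, day 4 and day 5. Their sum went from 1042 ± 91.5 CPM in crypts to 857 ± 70.3 CPM at day 5. The other 64 members went from 1194 ± 168 CPM to 542 ± 58.9, 375 ± 65.3 and 241 ± 58.0 CPM. The library ranges of the 64 did not overlap between crypts, lowest 1077 CPM, and day 3, highest 601 CPM. The 4 were picked by counts over all libraries, most of them monolayers, which favours members that stayed high there. Their rising share and the steeper fall of the 64 are thus in part built in.

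Linker histone genes split into a pair that fell deeply and 3 with smaller changes. Hist1h1a (RefSeq symbol H1f1) had 34.8, 47.0 and 34.1 CPM in crypts, 5.89, 4.45 and 7.12 CPM at day 3, 1.64, 2.71 and 2.06 CPM at day 4, and 2.62, 2.60 and 4.16 CPM at day 5. Every monolayer library lay below every crypt library, and the change was -3.51 ± 0.20 (edgeR adjusted p = 2.49e-11). Hist1h1b (H1f5) had 67.9, 85.1 and 55.8 CPM in crypts, then 31.4, 17.4 and 19.9, then 8.53, 10.3 and 11.7, and 2.42, 1.70 and 3.81 CPM at day 5. Its groups do not overlap at any step, and it fell at each: by -1.61 ± 0.24 from crypts to day 3, -1.17 ± 0.25 from day 3 to day 4 and -2.01 ± 0.32 from day 4 to day 5 (edgeR adjusted p = 1.25e-05, 0.014 and 0.000583). The step from day 3 to day 4 missed the threshold without day 3 replicate 1 (-0.88, adjusted p 0.115), day 4 replicate 1 (0.118) or day 4 replicate 2 (0.0576).

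Hist1h1c (H1f2) had 280, 313 and 305 CPM in crypts, 296, 337 and 332 at day 3, 345, 314 and 316 CPM at day 4, and 277, 266 and 321 CPM at day 5. Its change was 0.06 ± 0.07 (edgeR adjusted p = 0.534), monolayers overlapped with crypts, and the sign turned to -0.13 under library totals. Day 4 alone did not overlap with crypts: its lowest library, 314.3 CPM, lay above the highest crypt library, 312.8 CPM. The change at day 4 was 0.12 and was not called. Hist1h1e, the most counted member, had 391, 432 and 400 CPM in crypts and 246, 291 and 330 CPM at day 5, all lower, with -0.49 ± 0.12 (edgeR adjusted p = 0.00137). Over the 3 days its change was -0.22 ± 0.09 (edgeR adjusted p = 0.0458), and this call was lost in 10 of the 12 fits that left out 1 library, all but those without day 4 replicate 3 or day 5 replicate 3. Hist1h1d, chosen after its values were seen, went from 121 ± 28.8 CPM in crypts to 87.2 ± 18.9 CPM at day 5, a change of -0.48 ± 0.16 (edgeR adjusted p = 0.0168), which became -0.29 with an adjusted p of 0.113 without crypts replicate 2; the call was also lost without day 5 replicate 1 and with the compared groups alone (0.0518). Over the 3 days Hist1h1d had -0.33 (edgeR adjusted p = 0.0317) and at day 4 -0.41 (0.0336). Both calls were lost without crypts replicate 2 (0.354 and 0.215). The testis gene Hist1h1t had 14 counts over the 12 libraries and was not tested.

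**Figure D2:**
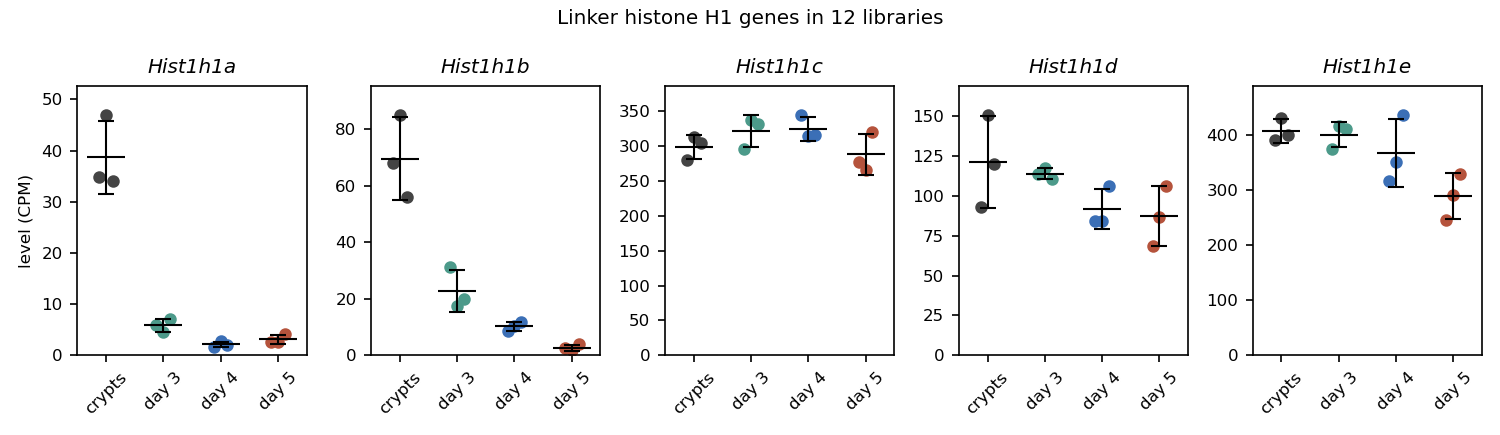
Level in CPM (y axis, from 0, a separate scale per gene) of 5 H1 genes in crypts and at days 3, 4 and 5 (x axis). Points are libraries and bars the mean ± SD of 3; Hist1h1a and Hist1h1b drop below every crypt library, while Hist1h1c overlaps between crypts and monolayers.

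H2A genes fell without exception among those tested, 13 of 13 (32.8% of all genes did) with a median of -2.22. Of these, Hist1h2ad had enough counts in crypts alone. Hist2h2ac had 95.3, 100.1 and 106 CPM in crypts, 46.4, 33.5 and 36.5 at day 3, 20.1, 23.0 and 26.3 CPM at day 4, and 14.7, 12.3 and 16.1 CPM at day 5. The 4 groups form separate steps, and the change was -2.11 ± 0.11 (edgeR adjusted p = 1.01e-11). Hist1h2ab had 83.5, 95.5 and 80.3 CPM in crypts and 22.8, 17.9 and 24.96 CPM at day 5, with -1.29 ± 0.16 over the 3 days (edgeR adjusted p = 9.32e-07).

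Hist1h2af stepped down at each group: it had 39.5, 55.3 and 42.1 CPM in crypts, 20.4, 11.8 and 15.2 at day 3, 4.31, 4.95 and 6.18 CPM at day 4, and 0.806, 1.35 and 1.04 CPM at day 5. No pair of neighbouring groups overlapped, and the change at day 5 was -5.33 ± 0.32 (edgeR adjusted p = 8e-11). Hist1h2an, with 23.4, 22.8 and 10.7 CPM in crypts, was left with 3 counts at day 5, all in replicate 3, and the pooled level was 126 times higher in crypts (exact 95% interval 42.9 to 615). This interval and the others on pooled counts cover counting error only and leave out the spread between libraries, and without replicate 3 the gene had 0 counts at day 5. Hist1h2ah, with 11.6, 11.4 and 6.59 CPM in crypts, was left with 1 count at day 5, a ratio of 201 (exact interval for counting error 35.7 to 7973). At the other end, Hist3h2a, chosen after its values were seen, went from 21.5 ± 3.85 CPM to 13.0 ± 2.72 CPM at day 5, a change of -0.74 ± 0.22 (edgeR adjusted p = 0.00762), which missed the threshold without day 5 replicate 2 (0.0537). The other 7 tested H2A genes had changes from -3.15 to -1.33 over the 3 days, and 5 H2A genes were not tested.

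All 14 tested H2B genes fell (32.8% of all genes did), with a median of -2.35, and yet the most abundant of them changed least. Hist1h2bp and Hist2h2be had enough counts in crypts alone. Hist2h2bb had 121, 145 and 118 CPM in crypts, 59.5, 46.2 and 33.3 at day 3, 23.1, 28.7 and 33.9 CPM at day 4, and 33.1, 10.6 and 13.3 CPM at day 5. All monolayer libraries lay below the crypts, with -2.15 ± 0.21 (edgeR adjusted p = 4.34e-08). Hist1h2bl had 17.6, 9.66 and 7.67 CPM in crypts and 0.202, 0.538 and 1.04 CPM at day 5, with -3.32 ± 0.37 over the 3 days (edgeR adjusted p = 2.59e-07). Hist1h2bm, chosen here for its stem-loop after its values had been seen, had 9.01, 19.8 and 25.98 CPM in crypts and 0.403, 1.26 and 1.39 CPM at day 5.

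Hist1h2bc followed another course. It had 180, 231 and 230 CPM in crypts, 146, 142 and 127 at day 3, 204, 187 and 202 CPM at day 4, and 227, 171 and 181 CPM at day 5. Day 3 stood below all other groups, which overlapped: the change from crypts to day 3 was -0.63 ± 0.12 (edgeR adjusted p = 0.000133), and the gene rose from day 3 to day 4 by 0.52 ± 0.12 and from day 3 to day 5 by 0.48 ± 0.12 (edgeR adjusted p = 0.0179 and 0.00613). The call at day 4 was lost without any of 5 libraries of those days (adjusted p 0.0529 to 0.118), all but day 4 replicate 2. Its fall over the 3 days, -0.30 ± 0.09 (edgeR adjusted p = 0.00874), was lost without crypts replicate 2 (0.0532) or crypts replicate 3 (0.0619). The 11 tested H2B genes other than Hist2h2bb, Hist1h2bl and Hist1h2bc changed by -3.24 to -1.16, and 5 H2B genes were not tested.

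H3 genes fell in 9 of 10 tested (32.8% of all genes did), with a median of -1.56. Of the 10, 2 were called at day 3 (27.9% of all genes), 4 at day 4 (28.4%) and 9 at day 5 (28.9%). The fitted change lay below 0 for all 10 on each day, with medians of -0.90, -1.48 and -2.65. Hist1h3c had 15.4, 13.7 and 7.22 CPM in crypts, 4.39, 3.51 and 4.55 at day 3, 1.03, 1.40 and 0.969 CPM at day 4, and 3 counts at day 5, all in replicate 3. Crypts stood above day 3 and day 3 above day 4, and the pooled level was 80.5 times higher in crypts than at day 5 (exact 95% interval for counting error 27.2 to 393), and without that replicate day 5 had 0 counts. Hist2h3b went from 8.27 ± 3.63 CPM to 1.21 ± 0.940 CPM at day 5, a change of -2.91 ± 0.57 (edgeR adjusted p = 0.000253). The 6 called H3 genes Hist1h3a, Hist1h3b, Hist1h3d, Hist1h3f, Hist1h3g and Hist1h3i had changes from -3.06 to -0.88 over the 3 days, and Hist1h3h, with 79 counts in all, was not tested.

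Hist1h3e, the most counted H3 gene, had 13.6, 34.5 and 19.8 CPM in crypts and 1.61, 10.4 and 18.7 CPM at day 5. These groups overlapped, and the change at day 5 of -1.13 ± 0.46 (edgeR adjusted p = 0.0425) was -1.78 without day 5 replicate 3, and was -0.67 without day 5 replicate 1 and -0.70 without crypts replicate 2. The call was lost in 8 of the 12 fits that left out 1 library (adjusted p up to 0.206), all but those without crypts replicate 1 or 3, day 4 replicate 1 or day 5 replicate 3, and also by DESeq2 (0.114) and with the compared groups alone (0.126). Over the 3 days it was -0.70 ± 0.35 (edgeR adjusted p = 0.0889). Hist2h3c1 had 5.21, 4.44 and 3.97 CPM in crypts, 0.499, 0.359 and 1.29 at day 3, 3.53, 0.561 and 2.06 CPM at day 4, and 3.23, 3.23 and 2.77 CPM at day 5. It was lowest at day 3 and higher at day 5 by 2.08 ± 0.67 (edgeR adjusted p = 0.0348), a call lost without any of 5 of the 6 libraries of those days (0.0583 to 0.153), all but day 3 replicate 3.

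Its near-copy Hist2h3c2 was the member with the clearest opposite pattern, and it had too few counts to be tested and was chosen after its values were seen. It had 0 counts in crypts and 29, 22 and 20 counts at day 3, day 4 and day 5, at least 6.27-fold higher in monolayers against a floor of 3 counts over the crypt group. Every 50-base word of either coding sequence is shared with another member, so a read of that length within the coding parts has no unique place. The levels of both together were 4.54 ± 0.625 CPM in crypts and 1.56 ± 0.512, 2.77 ± 1.55 and 3.92 ± 0.608 CPM on the 3 days.

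H4 genes fell in 11 of 13 (32.8% of all genes did), with a median of -1.29. Hist1h4h had 24.4, 40.3 and 35.9 CPM in crypts, 20.3, 14.2 and 15.3 at day 3, 11.9, 12.2 and 13.4 CPM at day 4, and 16.5, 9.50 and 14.9 CPM at day 5. Monolayers lay below crypts and overlapped among themselves, with -1.26 ± 0.18 (edgeR adjusted p = 7.07e-06). Hist1h4a had 9.81, 2.35 and 5.23 CPM in crypts and 0, 0.717 and 3.12 CPM at day 5, overlapping, with -1.82 ± 0.56 over the 3 days (edgeR adjusted p = 0.00833), which became -1.24 with an adjusted p of 0.112 without crypts replicate 1.

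Hist1h4d, the most counted H4 gene, had 61.9, 98.5 and 61.3 CPM in crypts, 65.01, 58.5 and 74.0 at day 3, 38.6, 48.9 and 58.0 CPM at day 4, and 14.1, 32.5 and 62.9 CPM at day 5. The day 5 libraries spread over the whole range, and the change over the 3 days was -0.60 ± 0.25 (edgeR adjusted p = 0.0423). That call was lost by DESeq2 (0.123) and without any of 6 libraries, most without crypts replicate 2 (-0.33, 0.293). Hist1h4i and Hist1h4m did not pass the test, with 0.07 ± 0.37 and 0.18 ± 0.44 (edgeR adjusted p = 0.887 and 0.742), and their libraries overlapped between crypts and monolayers. The other 8 H4 genes that fell had changes from -1.78 to -1.06.

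Between monolayer days, H4 genes gave 0 calls of 13 for each pair. Of all genes tested, 1.17% fell and 1.59% rose from day 3 to day 4, and 4.2% and 3.36% did from day 4 to day 5. From day 3 to day 5, 10.5% fell and 9.9% rose. With 13 genes, 0 calls is not far from these shares. For day 5 against day 3, 4 of the 13 had an unadjusted p under 0.05 and DESeq2 called 0. For day 4 against day 3 these counts were 1 and 0, with 5 set to no adjusted value by DESeq2, and for day 5 against day 4 they were 0 and 0. The medians of H4 were -0.59 from day 3 to day 4 and -0.48 from day 3 to day 5, while those of H2A, H2B and H3 from day 3 to day 5 were -1.78, -1.56 and -2.002.

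**Figure D3:**
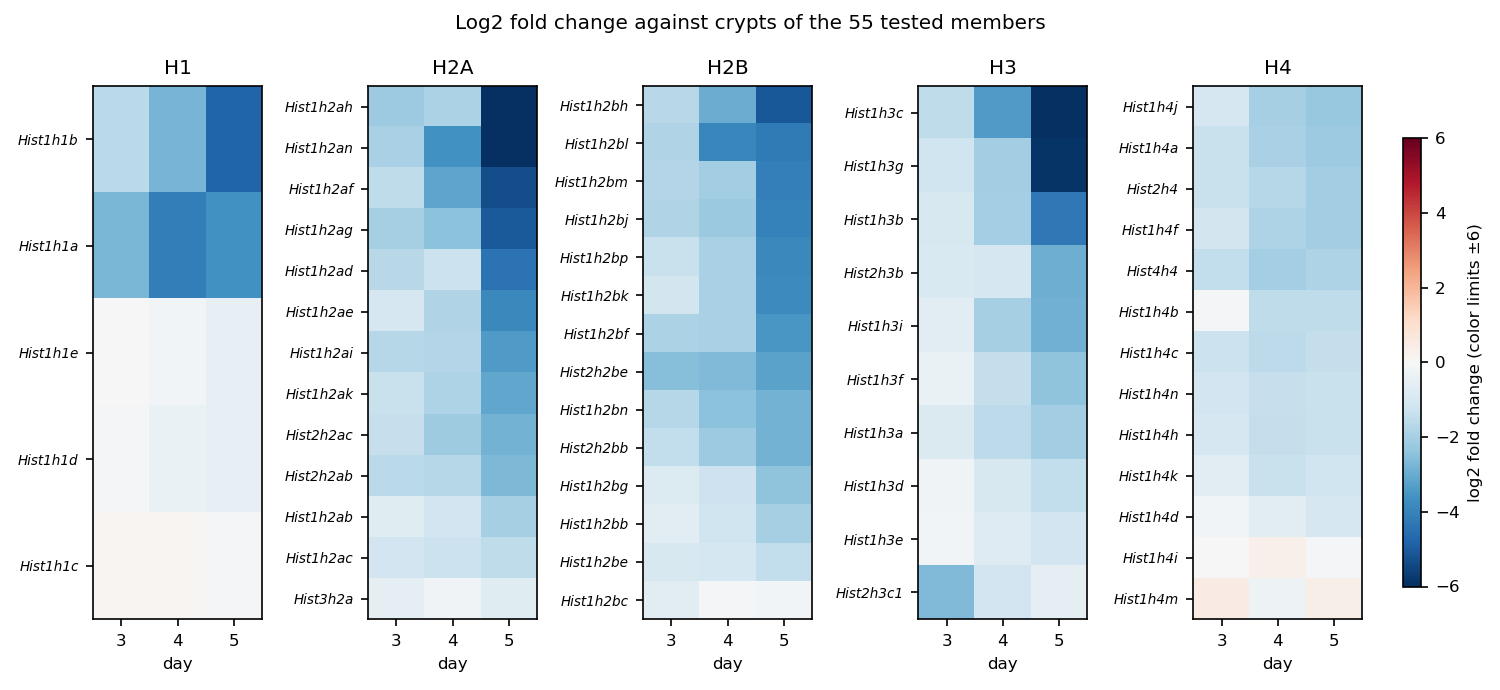
Log2 fold change against crypts (color, limits at ±6) of the 55 tested members (rows, by class) at days 3, 4 and 5 (columns). Blue marks lower levels in monolayers; H2A, H2B and H3 rows darken toward day 5, H4 rows stay paler, and fitted values of genes with 1 to 3 counts at day 5 (Hist1h2ah, Hist1h2an, Hist1h2ad, Hist1h2bp, Hist1h3c, Hist1h3g) depend on the prior count.

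From day 3 to day 5, 27 of 55 members fell and 2 rose, where 10.5% of all genes fell and 9.9% rose. The 27 were 3 of 5 H1 genes, 9 of 13 H2A, 9 of 14 H2B, 6 of 10 H3 and 0 of 13 H4. From day 4 to day 5, 13 members fell (background 4.2%) and 0 rose (3.36%), 8 of them H2A genes. DESeq2 called 18 and 24 had an unadjusted p under 0.05 for that pair. The count for day 4 to day 5 was 7 without day 4 replicate 2, 6 without day 4 replicate 3 and 5 without day 5 replicate 2.

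From day 3 to day 4 the fit called 5 members lower (1.17% of all genes) and 1 higher (1.59%). The 5 were Hist1h1a, Hist1h1b, Hist1h2af, Hist1h2bl and Hist2h2ac, and the 1 was Hist1h2bc. The count of 6 was 1 without day 3 replicate 1 or without day 4 replicate 1, and 3 without day 3 replicate 3. Hist1h2bl had -2.10 ± 0.53 (edgeR adjusted p = 0.0387), a call lost without any of the 6 libraries of those days (0.0759 to 0.203). Hist1h2af had -1.62 ± 0.25 (edgeR adjusted p = 0.00176), which held without each library in turn. The call of Hist1h1a was lost without day 3 replicate 1 or 3 or without day 4 replicate 1 (0.0511 to 0.114), and that of Hist2h2ac without day 3 replicate 1 or day 4 replicate 1 (0.0871 and 0.106).

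Levels of genes can be compared only per length, and here CPM were divided by the coding length in kilobases. In crypts the highest were Hist1h1e at 620 CPM per kb, Hist1h2bc at 565, Hist1h1c at 471, Hist2h2bb at 338, Hist2h2ac at 260, Hist1h4d at 239 and Hist1h2ab at 222. The H3 genes were lower, led by Hist1h3e at 55.4 CPM per kb. These are levels and not changes. They also depend on how many reads of each gene were placed uniquely and on how much transcript lies outside the coding part.

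Near-identical copies limit what the counts can say of single members. Reads with more than 1 alignment were kept apart from the genes by the counter and made up 18.7 ± 0.379% of reads in crypts, 17.8 ± 0.800% at day 3, 17.4 ± 0.378% the day after and 15.3 ± 1.011% at day 5. In the coding sequences, the median share of 50-base words also present in another member was 73.9%, with 10.99% in H1, 83.4% in H2A, 77.1% in H2B, 85.4% in H3 and 71.2% in H4. H1 had the lowest median, though Hist2h2bb, Hist2h2be and Hist4h4 also shared no word with another member, and Hist1h2bc, the third most counted member, shared 97.6%. Across 67 coding members the shared percentage and the total count had a Spearman correlation of -0.42, given as a description. These shares cover other members only. Every coding word of Hist2h2bb, Hist3h2a and Hist2h3b was also present in a transcript of some other gene. Whether such a gene lies elsewhere or overlaps the same place was not examined.

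In 12 members every coding 50-base word is shared with another member, so a read of that length within the coding part has no unique place: Hist1h2ad, Hist1h2ag, Hist1h2ao, Hist1h2ap, Hist1h2bq, Hist1h2br, Hist1h4m, Hist1h4n, Hist2h2aa1, Hist2h2aa2, Hist2h3c1 and Hist2h3c2. Of these, 6 had at most 4 counts over all libraries, and 5 had enough counts to be tested. The pairs Hist1h2ao and Hist1h2ap, Hist1h2bq and Hist1h2br, Hist1h4m and Hist1h4n, and Hist2h2aa1 and Hist2h2aa2 have identical coding sequences. A count of 0 for Hist1h2ap, Hist1h2bq, Hist1h2br or Hist2h2aa1 is therefore no sign of absent mRNA, and Hist1h2aa, a testis gene, also had 0 counts.

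Falls were found among members with much and with little sequence common to other members. Members with over 90% of shared words fell in 9 of 10 tested, with a median of -1.96. Those with 90% or less fell in 42 of 45, with a median of -1.78, where 32.8% of all genes fell. Over the 55 tested members the Spearman correlation of the shared percentage with the change was -0.10. Leaving out members with over 90% shared words moved the summed change from day 3 to day 5 to -0.61.

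Members differ in how far their annotated transcript runs past the stem-loop, and a longer 3′ end is a known feature of histone transcripts that carry a poly(A) tail. In 18 members the annotation runs 330 to 4884 bases further, and 14 of the 17 tested fell (32.8% of all genes did). The 17 had a median of -1.16 over the 3 days and -1.45 at day 5. In 28 members it ends 3 to 185 bases after the stem-loop, and 21 of the 22 tested fell, with medians of -2.17 and -3.15. The remaining 22 members, with the pseudogene, gave no stem-loop letters. All 16 tested of them fell, with medians of -2.32 and -3.17, and they include Hist1h1a and Hist1h1b. Without the H1 genes the 14 tested members with the longer annotation had a median of -1.37 (12 fell). The limit of 300 bases was set after values had been seen, so these are descriptions with no test.

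Hist1h1c, Hist1h1d and Hist1h1e, 3 of the 4 most counted members, have the longer annotation. Hist1h2bh, named after its values were seen, also has it and went from 14.9 ± 1.93 to 0.355 ± 0.359 CPM at day 5, so the group is not uniform. Hist1h4m, whose annotation ends 3 bases after the stem-loop, had 0.18 ± 0.44 over the 3 days and did not pass the test. Hist1h4n, which has the same coding sequence, fell by -1.29 over the 3 days and was called on none of them singly. That call was lost without crypts replicate 1 (-0.84, edgeR adjusted p = 0.192). Reads within the coding part cannot be told apart between Hist1h4m and Hist1h4n. Hist1h2bc, the third most counted member, has an annotated end without the stem-loop letters.

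**Figure D4:**
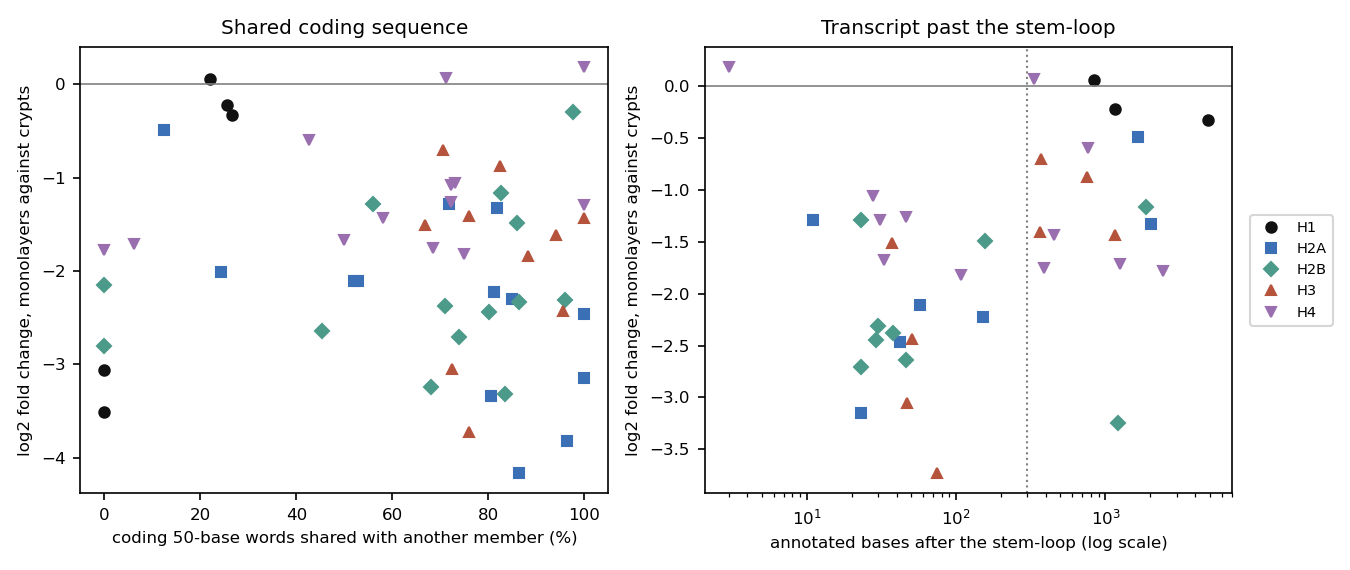
Log2 fold change of monolayers against crypts (y axis) for the tested members, by the percentage of coding 50-base words shared with another member (left) and by annotated bases after the stem-loop (right, log scale, 39 members, dotted line at 300 bases). Each point is a gene and symbols mark the class, and low values occur at both ends of the left axis. On the right, Hist1h1c, Hist1h1d, Hist1h1e, Hist1h4i and Hist1h4m lie nearest 0. Hist1h1a and Hist1h1b, without stem-loop letters, are not shown there.

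Promoter sequence was compared because the members moved together. RefSeq windows from 250 bases before to 50 bases after the start (GRCm38.p6) were matched for 61 members, with 62 windows. Shown are an H1, an H2A and an H4 gene that all fell, with capitals for the letters ATTTGCAT (the octamer of H2B promoters), CCAAT and TATAAA on either strand.
Hist1h1a, chr13:23763418-23763717, plus strand: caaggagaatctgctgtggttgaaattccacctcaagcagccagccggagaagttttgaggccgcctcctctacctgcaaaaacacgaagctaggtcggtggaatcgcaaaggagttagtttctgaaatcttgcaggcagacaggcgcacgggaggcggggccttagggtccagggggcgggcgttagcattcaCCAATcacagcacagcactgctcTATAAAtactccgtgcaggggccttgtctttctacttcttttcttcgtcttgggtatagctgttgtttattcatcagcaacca
Hist1h2ah, chr13:22035594-22035893, minus strand: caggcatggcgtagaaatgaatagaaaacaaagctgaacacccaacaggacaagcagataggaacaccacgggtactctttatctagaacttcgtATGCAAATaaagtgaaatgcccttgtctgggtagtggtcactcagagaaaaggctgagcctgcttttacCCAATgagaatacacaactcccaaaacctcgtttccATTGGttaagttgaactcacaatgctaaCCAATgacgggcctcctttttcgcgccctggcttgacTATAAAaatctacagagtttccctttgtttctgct
Hist1h4h, chr13:23530794-23531093, plus strand: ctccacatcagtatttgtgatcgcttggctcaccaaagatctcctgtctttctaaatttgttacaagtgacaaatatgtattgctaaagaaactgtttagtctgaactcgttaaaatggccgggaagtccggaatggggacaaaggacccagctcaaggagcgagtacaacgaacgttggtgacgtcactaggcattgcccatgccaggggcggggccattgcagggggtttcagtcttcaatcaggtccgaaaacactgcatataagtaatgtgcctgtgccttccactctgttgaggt
CCAAT was found in each window of H1, H2A, H2B and H3 (6, 17, 17 and 10 windows) and in 3 of 12 windows of H4, where 37.4% of all 32851 RefSeq windows hold it. The octamer was found in 7 of 17 H2A and 7 of 17 H2B windows and in none of the other classes, against 1.74% of all windows. TATAAA was found in 56.5% of member windows and 13.6% of all. A match describes letters and no binding.

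H2A and H2B genes often face away from each other across a shared promoter. There were 9 such pairs with 164 to 281 bases between their RefSeq starts, of which 7 had both genes tested. As every tested H2A and H2B gene fell, the pairs add nothing to the counts of the classes. H2A genes with the octamer had a median of -1.72 (6 tested) and those without it -2.47 (7 tested). In H2B the medians were -1.82 and -2.44, with Hist1h2be in both sets through its 2 windows. These medians carry no test. The pairs Hist1h2ae and Hist1h2bg, Hist1h2ah and Hist1h2bk, and Hist1h2ba and Hist1h2aa each have overlapping windows that hold 1 octamer site on opposite strands. The H2A and H2B octamer windows are thus not all separate sites.

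Genes that act on histone mRNA gave calls in both directions, in shares below those of all genes. Of 23 genes for histone mRNA transcription, processing and decay, 6 fell (32.8% of all genes did) and 4 rose (30.7%), with a median of -0.06. Slbp, the stem-loop binding protein, had 44.9, 47.2 and 49.6 CPM in crypts and 14.4 to 27.5 CPM in the 9 monolayer libraries, all lower, with -1.22 ± 0.15 (edgeR adjusted p = 7.94e-07). By day its level was 17.3 ± 4.22, 22.7 ± 4.46 and 21.4 ± 2.66 CPM, with 0.31 ± 0.20 from day 3 to day 5 (edgeR adjusted p = 0.288).

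Npat, the coactivator of histone gene transcription, had -0.44 ± 0.12 (edgeR adjusted p = 0.0046). Casp8ap2, a partner of NPAT in histone locus bodies, fell from 59.9 ± 3.36 to 32.0 ± 3.18 CPM (n = 9), a change of -0.91 ± 0.11 (edgeR adjusted p = 5.53e-07). Ncbp2, a subunit of the cap-binding complex, had -1.01 ± 0.20 (edgeR adjusted p = 0.000245). Zcchc11, a uridylyl transferase linked to histone mRNA decay, rose from 62.1, 74.5 and 73.8 CPM in crypts to 133 to 177 CPM in monolayers, with 1.14 ± 0.09 (edgeR adjusted p = 1.3e-09).

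Among 23 histone chaperones and deposition factors, 10 fell (32.8% of all genes) and 3 rose (30.7%), with a median of -0.21. Asf1b, a chaperone of H3 and H4, had 12.4, 10.7 and 8.03 CPM in crypts and 0.202, 1.70 and 1.39 CPM at day 5, with -2.08 ± 0.39 over the 3 days. Mcm2, a helicase subunit that also binds histones, went from 31.2, 34.3 and 42.9 CPM to 2.82, 5.83 and 6.24 CPM at day 5, with -2.02 ± 0.20 over the 3 days. Chaf1b, a subunit of chromatin assembly factor 1, had -1.64 ± 0.44. Nap1l1, a chaperone of H2A and H2B, rose by 1.66 ± 0.15, from 28.6, 28.3 and 46.8 CPM to 77.4 to 146 CPM. The edgeR adjusted p-values of these 4 genes were 0.000146, 7.79e-08, 0.00325 and 1.14e-08.

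Genes listed here as replication-independent histone variants behaved unevenly, and the list does not establish that each is made only outside S phase. Of 14 listed genes 10 were tested, and 8 fell (32.8% of all genes) and 1 rose (30.7%), with a median of -0.49. H3f3a, which codes for H3.3 and has a poly(A) mRNA, had 90.7, 107 and 135 CPM in crypts and 99.1 to 141 CPM in monolayers, with 0.11 ± 0.11 (edgeR adjusted p = 0.403). H2afx, the variant phosphorylated at DNA breaks, had 42.3, 46.5 and 48.1 CPM in crypts and 4.23, 10.4 and 13.3 CPM at day 5, with -1.74 ± 0.19 over the 3 days (edgeR adjusted p = 1.95e-07). H2afz, the gene for H2A.Z, had -0.91 ± 0.19, H2afj had -0.58 ± 0.14, and H3f3b, a further H3.3 gene, had -0.20 ± 0.08 (edgeR adjusted p = 0.000449, 0.00176 and 0.0477). Cenpa, the centromeric H3, overlapped with crypts at day 3 and day 4 and stood at 1.81, 0.628 and 2.25 CPM at day 5, below all other libraries, with -3.44 ± 0.39 from day 4 to day 5 (edgeR adjusted p = 2.07e-05).

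Genes of S phase and DNA replication fell with the histone genes. Of 33 listed, 30 fell (32.8% of all genes) and 0 rose (30.7%) over the 3 days, with a median of -1.57, and 20 fell (10.5%) and 1 rose (9.9%) from day 3 to day 5. Their summed level was 2106 ± 205 CPM in crypts and 999 ± 151, 751 ± 123 and 295 ± 9.02 CPM at day 3, day 4 and day 5. Mki67, a marker of cycling cells that is the largest part of this sum, had 933, 1082 and 866 CPM in crypts, 511, 387 and 359 at day 3, 234, 360 and 361 CPM at day 4, and 40.7, 31.2 and 40.7 CPM at day 5. Pole, the catalytic subunit of DNA polymerase epsilon, had 25.6, 28.7 and 28.7 CPM in crypts and 0.806, 0.538 and 1.04 CPM at day 5. Its change over the 3 days was -3.35 ± 0.30 (edgeR adjusted p = 1.71e-08). Pola1, the catalytic subunit of DNA polymerase alpha, had -3.13 ± 0.40, and Cdc45, part of the replicative helicase, had -2.93 ± 0.46 (edgeR adjusted p = 1.79e-06 and 2.15e-05). Gins1, of the same helicase, had 2.003, 2.22 and 4.87 CPM in crypts and 0 counts in the 3 libraries of day 5. The lists were read beside the histone genes by count and median only, and no link between them was tested.

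**Figure D5:**
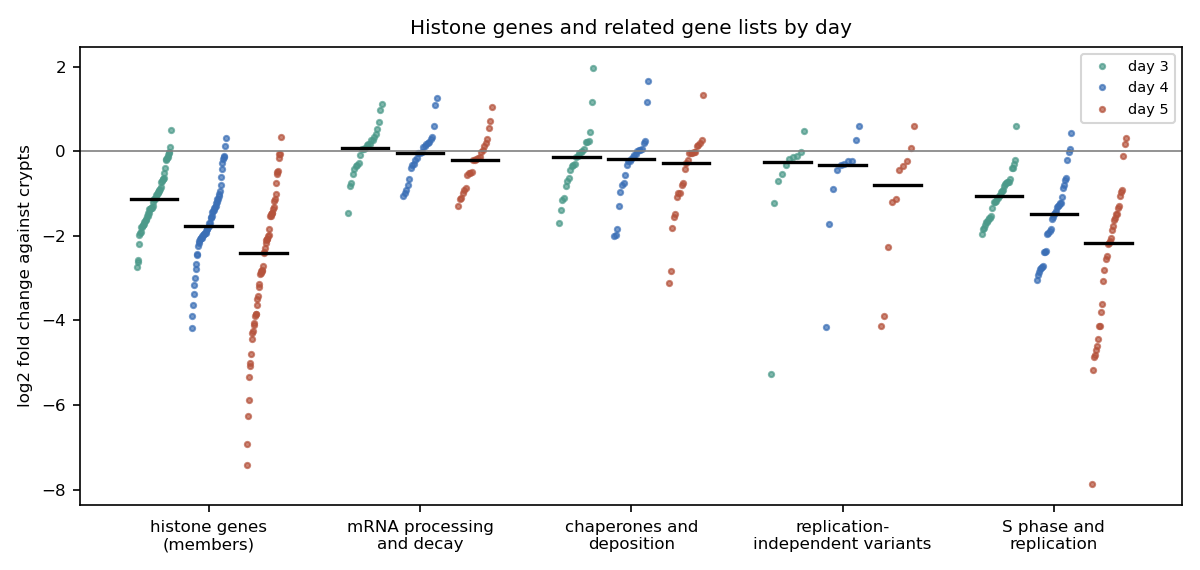
Log2 fold change against crypts (y axis) of the 55 tested histone genes and of 4 related gene lists (x axis) at days 3, 4 and 5 (colors). Points are genes, spread sideways in order of value, and black bars are medians; the medians of histone genes (-1.14, -1.76, -2.41) and of S phase genes (-1.06, -1.49, -2.16) move down by day, while those of the other lists stay between -0.79 and 0.08.

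Other cells were present unevenly. Fibroblast and smooth muscle markers summed to 14.2 to 88.5 CPM in crypts and 0.799 to 5.04 CPM in monolayers, with Dcn and Lum at 0 counts in each monolayer library. Leukocyte markers summed to 15.1 to 33.4 CPM in crypts and 21.5 to 45.5 CPM in monolayers. Of the 4 tested, 3 were lower (32.8% of all genes were): Ptprc, Cd3e and Itgam. Cd68 carried the sum in monolayers, with 1.35 ± 0.744 CPM in crypts and 31.4 ± 9.39 CPM in monolayers (n = 9), while Ptprc, the common leukocyte antigen, went from 17.0 ± 6.48 to 0.233 ± 0.235 CPM. Red blood cell markers summed to 0.361 to 1.96 CPM in crypts, with Hba-a1 and Hba-a2 at 0 in all 12 libraries. Whether such cells, or the loss of goblet cells, add to the histone differences was not tested. Reads in no annotated gene were 47.3 ± 1.69% in crypts and 39.5 to 41.5% as means of the monolayer days.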

How the data were processed

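Each library's file of counts, as deposited by the authors, held whole reads per gene symbol with no normalization, and 5 summary lines that name no gene and entered neither library sizes nor tests. The tools were CASAVA 1.9, TopHat2 and HTSeq, per the submitters' processing notes, which list mm9 and mm10 as builds with no role, so no coordinates are given for the counts. For strand, annotation and RNA selection nothing is stated in the labels, so overlapping and antisense genes cannot be told apart. Reads aligned more than once were not counted to genes, which lowers genes with near-identical copies.

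Samples were grouped by the labels. Genes were kept by filterByExpr (minimum count 10), scaled by TMM and tested in 1 fit of all 12 libraries with edgeR 4.0.16 (glmQLFit, glmQLFTest) in R 4.3.3. The same steps were also run on simulated counts with levels and spread taken from these data. For monolayers against crypts they recovered 58.2, 79.1 and 100% of genes changed 1.5-, 2- and 4-fold, with 10 false calls. A gene that was not called may thus still have a small change. P-values were adjusted by Benjamini-Hochberg over 12863 genes. DESeq2 1.42.0, other filters, library totals, the groups compared alone and leave-one-out fits were alternatives. Replicates differed by more than sampling noise, so none was counted as a duplicate. Members and lists were chosen with earlier results of these data known. Members named with full values were, in each class, the 2 with the highest mean CPM and the largest called change each way, and for each pair of days all called members if 6 or fewer and otherwise the 3 largest each way, with a mean of at least 1 CPM; other members given with values were chosen after their values were seen.

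Shared 50-base words, coding lengths and stem-loops came from GENCODE M21 transcripts (GRCm38), as coding lengths were taken there and not from RefSeq as first planned. Promoters came from RefSeq (GRCm38.p6), matched by symbol or synonym. A planned comparison of members with identical proteins was replaced by the share of coding words. The value of a single leukocyte marker is not reported here.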

Additional observations from a re-analysis of the deposited data

How the results depend on the processing

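No called member changed sign under any setting run for the members named here, and Hist1h1c, which was not called, turned to -0.13 under library totals (adjusted p 0.171). Over 33 results for single members, 573 settings kept direction and side of the threshold, 58 lost the threshold, 5 passed it and 1 reversed. The log2 change of the summed level of all members over the 3 days, at day 3, at day 4 and at day 5 was -0.95, -0.72, -0.89 and -1.23 under library totals, and -0.92, -0.71, -0.88 and -1.17 without the most counted member. Without the 4 most counted members, a setting chosen after seeing the data, these were -1.71, -1.13, -1.68 and -2.32, and for day 4 against day 3, day 5 against day 4 and day 5 against day 3 -0.54, -0.65 and -1.19. Without members sharing over 90% of coding words, also chosen after seeing the data, day 5 against day 3 was -0.61.

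Leaving out 1 library in turn gave 41 to 53 calls for monolayers against crypts, 27 to 36 at day 3, 34 to 46 at day 4 and 42 to 51 at day 5, 22 to 31 for day 5 against day 3, 5 to 16 for day 5 against day 4 and 1 to 9 for day 4 against day 3. The same fits gave sums of -0.83 to -0.68, -0.62 to -0.47, -0.79 to -0.63, -1.12 to -0.94, -0.57 to -0.42, -0.40 to -0.24 and -0.24 to -0.11 in that order. With no filter, day 4 against day 3 had 10 calls. With only the groups compared in the fit it had 13, and day 5 against day 4 had 7. The cause was not tested. Deviations from the group means correlated weakly between same-numbered libraries of different groups (-0.034 to 0.058) and between differently numbered ones (-0.077 to 0.026). The labels do not say what the numbers mean, and these values cannot decide whether they mark a pairing. With the replicate number as a block, the calls were 49, 30, 37 and 49 against crypts, in the order above, and 28, 13 and 5 between days. Few counts limit the low members: 13 of 68 could not be tested.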
